A study of Homo sapiens with 132 samples.

Results

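The gastric mucins and trefoil factors are 10 genes, found in the count files by the Ensembl identifiers that belong to these symbols, out of 65217 identifiers counted. They comprise 4 membrane-bound mucins (MUC1, MUC4, MUC13 and MUC16), 3 secreted mucins (MUC2, MUC5AC and MUC6) and 3 trefoil factors (TFF1, TFF2 and TFF3). Their mRNA was measured by RNA sequencing in 4 established gastric cancer cell lines (NCI-N87, MKN7, MKN1 and Hs746T), with 3 libraries for each of 44 conditions. MKN1 and Hs746T cells were kept without treatment or received EGF (5 ng/ml, the ligand of EGFR), cetuximab (1 µg/ml, an antibody against EGFR), EGF + cetuximab, trastuzumab (5 µg/ml, an antibody against HER2), afatinib (0.5 µM, a kinase inhibitor of the EGFR family) or the pair trastuzumab + afatinib, and were harvested at 4 h or 24 h. For NCI-N87 and MKN7 cells the arms were untreated, trastuzumab, afatinib and trastuzumab + afatinib at the same times. Untreated cells of the same time point were the control of every treatment except EGF + cetuximab, which was compared with EGF. All comparisons with untreated cells within a cell line and time point share the same 3 libraries. The paper names DMSO as the solvent control of afatinib, but no DMSO library is among the 44 conditions. Effects of afatinib and of its solvent therefore cannot be told apart. Hs746T was the line kept in DMEM, the others being kept in RPMI, so its medium and its identity cannot be told apart. Each line is a single culture model without the other cells of the gastric mucosa.

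Mucins are long glycoproteins whose serine- and threonine-rich repeats carry dense O-linked sugars. In the stomach, MUC5AC is secreted by the pit (surface) cells and MUC6 by the gland mucous cells, and together they form the mucus gel. MUC2 is the gel-forming mucin of the intestine and appears in the stomach in intestinal metaplasia. MUC1, MUC4, MUC13 and MUC16 stay anchored in the apical membrane, where they form a barrier and can signal, MUC4 as a binding partner of HER2. The trefoil factors are small secreted peptides that accompany the mucins and take part in mucosal repair, TFF1 with MUC5AC, TFF2 with MUC6, and TFF3 mainly in the intestine.

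In the GENCODE 29 annotation of GRCh38, the secreted mucins lie near each other on chromosome 11, MUC6 (ENSG00000184956, chr11:1012821-1036706, minus strand), MUC2 (ENSG00000198788, chr11:1074875-1110511, plus strand) and MUC5AC (ENSG00000215182, chr11:1157953-1201138, plus strand). The trefoil factors form a row on chromosome 21, TFF3 (ENSG00000160180, chr21:42311667-42315651, minus strand), TFF2 (ENSG00000160181, chr21:42346357-42351128, minus strand) and TFF1 (ENSG00000160182, chr21:42362282-42366594, minus strand). The membrane-bound mucins are spread over MUC1 (ENSG00000185499, chr1:155185824-155192916, minus strand), MUC4 (ENSG00000145113, chr3:195746765-195812277, minus strand), MUC13 (ENSG00000173702, chr3:124905442-124953819, minus strand) and MUC16 (ENSG00000181143, chr19:8848844-8981342, minus strand). MUC1 was the only member whose exons overlap those of another gene on the same strand (AL713999.1), so reads in the overlap cannot be given to either.

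MUC1, MUC4 and MUC16 rose after afatinib in the same lines, and their promoters are therefore shown. Each is the stretch of 250 bases before the first RefSeq start site (GRCh38.p14), read on the minus strand, 5′ to 3′, at chr1:155192916-155193165 for MUC1, chr3:195811930-195812179 for MUC4 and chr19:9065752-9066001 for MUC16. The MUC16 start site lies upstream of the end of the GENCODE 29 gene. Capitals mark the matches of 7 motifs searched on both strands, each match being a description and not a binding site. The AP-1 motif was searched as TGANTCA and the TATA box by the letters TATAAA. For the GC box the letters were GGGCGG, and for STAT factors TTCNNNGAA was taken. The FOXO motif was read as GTAAACA, the ETS motif was given by CCGGAAG, and the CACCC box was searched with CCACCC.
MUC1: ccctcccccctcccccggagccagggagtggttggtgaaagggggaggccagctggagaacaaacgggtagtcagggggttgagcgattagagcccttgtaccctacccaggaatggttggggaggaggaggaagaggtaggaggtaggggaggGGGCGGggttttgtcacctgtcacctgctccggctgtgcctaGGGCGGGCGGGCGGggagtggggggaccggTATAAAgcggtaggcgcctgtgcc
MUC4: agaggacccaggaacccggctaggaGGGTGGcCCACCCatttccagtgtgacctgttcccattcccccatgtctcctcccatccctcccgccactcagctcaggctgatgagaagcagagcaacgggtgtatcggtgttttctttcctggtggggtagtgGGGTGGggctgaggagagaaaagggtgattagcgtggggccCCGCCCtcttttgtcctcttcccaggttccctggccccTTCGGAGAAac
MUC16: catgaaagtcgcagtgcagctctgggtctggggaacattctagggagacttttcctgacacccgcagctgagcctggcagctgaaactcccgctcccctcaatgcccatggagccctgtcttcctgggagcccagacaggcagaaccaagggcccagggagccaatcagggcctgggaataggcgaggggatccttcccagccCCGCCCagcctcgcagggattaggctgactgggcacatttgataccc
The GC box was the motif that all of them held. It stood 4 times in MUC1, 3 of them overlapping in a row, once in MUC4 and once in MUC16, and 42.6% of 35116 RefSeq promoters of the same length held it. MUC1 also held the TATA box, 24 to 19 bases before the start, found in 10.7% of promoters. MUC4 also held the STAT letters (6.57% of promoters) and 3 CACCC boxes (31.3% held at least 1). The AP-1 (6.57% of promoters), FOXO (2.98%) and ETS (8.52%) letters are not in these windows. RefSeq lists another start site for MUC16 (window chr19:9010410-9010659, not printed), which holds the AP-1 letters 136 to 130 bases before it, a CACCC box and no GC box, so these matches depend on the start site taken.

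The libraries held 25832557 to 69434151 counts on genes (median 50725776). Levels are given as CPM, counts scaled to the library total, and a level of 3 counts, taken as the floor, was 0.0432 CPM in the deepest and 0.116 CPM in the shallowest library; these floors cover counting error only, and the 95% intervals of log2FC are from edgeR's fit and include the spread of the replicates. A gene was called regulated at a Benjamini-Hochberg adjusted p below 0.05 over all genes tested in edgeR's quasi-likelihood test and a log2 fold change (log2FC) above 1 or below -1. A gene is said to have risen or fallen where the adjusted p was below 0.05. The number after ± is the SD of the libraries for CPM and the standard error for log2FC. As a check of the cell type, the levels of 8 epithelial markers summed to 17846 to 19895 CPM in untreated MKN1, 5986 to 7069 in MKN7 and 18380.1 to 21823 in NCI-N87 cells, but to 808 to 953 CPM in Hs746T cells. Keratins (KRT8, KRT18 and KRT19) made up most of the MKN1 sum. There CDH1, ESRP1, GRHL2, EPCAM and CLDN4 had means of 2.06, 2.35, 0.447, 23.7 and 10.0 CPM, against 244, 168, 140, 597 and 139 CPM in MKN7 cells. Mesenchymal markers (7 genes) summed to 1905 to 3139 CPM in MKN1, 455 to 727 in MKN7, 237 to 391 in NCI-N87 and 4021 to 5744 in Hs746T cells. The defining pit cell genes GKN1 and GKN2 were at or near 0 in every line, and the pit cell list (7 genes) reached 176 to 401 CPM in NCI-N87 cells through CAPN8. The gland cell list stayed at 0.326 to 0.837 CPM in MKN1, 0.567 to 0.900 in MKN7 and 5.39 to 14.8 in NCI-N87 cells. 

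Per kilobase of exon, MUC5AC led in untreated NCI-N87 cells and MUC1 in the other lines. This scale adjusts for gene length, and levels are the mean of 6 untreated libraries per line, both time points. By CPM without it, MUC16 stood above MUC1 in MKN1 (46.1 against 17.3) and MKN7 cells (51.7 against 45.1). MUC5AC in NCI-N87 and MUC1 in Hs746T cells led on both scales. In NCI-N87 cells MUC5AC stood at 7.55 CPM per kilobase, ahead of MUC13 (3.16) and MUC4 (3.06). In MKN7 cells MUC1 was highest (9.56), ahead of TFF2 (6.13), TFF1 (2.47), MUC4 (1.77) and MUC16 (1.18). MUC1 was also highest in MKN1 cells (3.68), followed by TFF2 (2.59) and MUC16 (1.05), and in Hs746T cells (1.66), where MUC13 (1.30) came next, far above MUC6 at 0.0218. Of the 10 members, the mean was above 1 CPM for 6 in MKN7, 6 in MKN1, 5 in NCI-N87 and 2 in Hs746T cells.

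**Figure D1:**
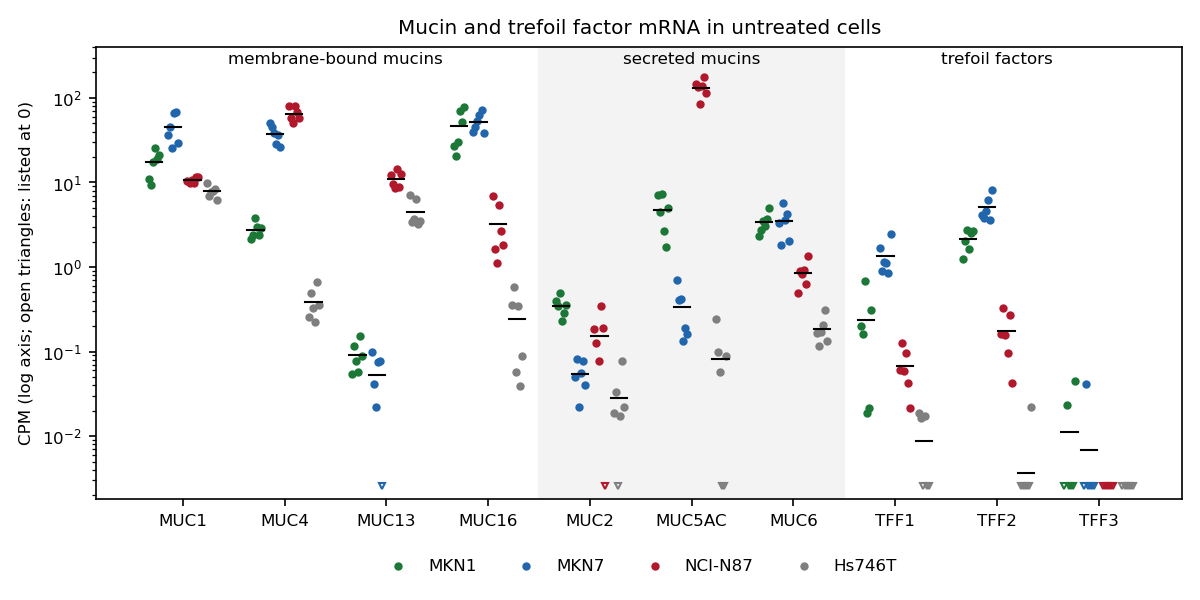
CPM (log axis) of the 10 genes in the 6 untreated libraries of each cell line, with the mean as a bar and open triangles for libraries listed at 0. MUC5AC stands at 85.2 to 175 CPM in NCI-N87 cells and below 8 CPM elsewhere, and TFF3 is at or near 0 in every line.

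Among the membrane-bound mucins, MUC1 was the one present in every line. Its lowest, median and highest untreated levels were 25.5, 41.0 and 67.5 CPM in MKN7, 9.37, 18.3 and 25.9 CPM in MKN1, 9.80, 10.7 and 11.7 CPM in NCI-N87 and 6.20, 7.83 and 9.91 CPM in Hs746T cells, and neighbouring lines in this order overlapped. MUC4 had 50.7, 62.6 and 79.7 CPM in NCI-N87, 26.5, 37.4 and 51.0 CPM in MKN7, 2.15, 2.65 and 3.85 CPM in MKN1 and 0.223, 0.340 and 0.658 CPM in Hs746T cells. The libraries of NCI-N87 and MKN7 cells overlapped for MUC4, and both stood above all others. MUC16 had 38.2, 49.4 and 72.2 CPM in MKN7, 20.3, 40.9 and 77.6 CPM in MKN1, 1.11, 2.26 and 6.83 CPM in NCI-N87 and 0.0387, 0.216 and 0.577 CPM in Hs746T cells. MKN7 and MKN1 cells were not told apart for MUC16 (difference log2FC 0.41, 95% interval -0.22 to 1.04), and both lay above every library of the others. MUC13, a membrane mucin of the gastrointestinal tract, was found in NCI-N87 (8.63, 10.9 and 14.4 CPM) and Hs746T cells (3.25, 3.58 and 7.05 CPM), which did not overlap, and stayed at 0 to 7 counts in the untreated libraries of MKN1 and MKN7 cells.

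Among the secreted mucins, MUC5AC showed the widest range. Its lowest, median and highest levels were 85.2, 135 and 175 CPM in untreated NCI-N87 cells, 1.74, 4.70 and 7.31 CPM in MKN1, 0.132, 0.301 and 0.695 CPM in MKN7 and 0, 0.0729 and 0.241 CPM in Hs746T cells. The NCI-N87 libraries lay above all others (against MKN1, log2FC 4.93 ± 0.22, adjusted p = 1.2e-37), while MKN7 and Hs746T cells overlapped. MUC6, its partner in the gastric gel, was low everywhere, with 1.82, 3.49 and 5.78 CPM in MKN7, 2.33, 3.25 and 4.98 CPM in MKN1, 0.488, 0.863 and 1.34 CPM in NCI-N87 and 0.115, 0.170 and 0.310 CPM in Hs746T cells. MKN7 and MKN1 cells overlapped for MUC6 and stood above the other lines. MUC2 was highest in MKN1 cells (0.227, 0.353 and 0.487 CPM, 12 to 22 counts), which overlapped with NCI-N87 cells (0, 0.155 and 0.348 CPM). At most 18 counts were seen in an untreated library of the other lines.

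Of the trefoil factors, TFF1 and TFF2 were highest in MKN7 cells. TFF2 had 3.56, 4.38 and 8.18 CPM in untreated MKN7 and 1.23, 2.29 and 2.77 CPM in MKN1 cells, which did not overlap, 0.0425, 0.159 and 0.327 CPM in NCI-N87 cells, and was listed at 0 in 5 of 6 Hs746T libraries. TFF1 had 0.843, 1.14 and 2.49 CPM in MKN7 and 0.0189, 0.181 and 0.692 CPM in MKN1 cells. TFF3 reached at most 3 counts in any library and had a count in 14 of them. A listed 0 is no proof of absence here, since XBP1, a factor that most secreting cells express, was 1 of 10 genes of the lists used below that were listed at 0 in every library.

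Tests between untreated lines, over 9 members and both time points, gave regulated differences for 8 members between NCI-N87 and MKN7 (of all genes tested, 44.4% were called), 8 between NCI-N87 and MKN1 (45.9%), 8 between NCI-N87 and Hs746T (49.1%), 6 between MKN7 and MKN1 (41.4%), 8 between MKN7 and Hs746T (45.9%) and 9 between MKN1 and Hs746T cells (47.8%). In NCI-N87 against MKN7 cells, 3 members were higher (MUC2, MUC5AC and MUC13) and 5 were lower (MUC1, MUC6, MUC16, TFF1 and TFF2). A member could enter these tests through 1 line alone. MUC2 did not pass the filter within NCI-N87 or MKN7 cells, whose untreated libraries held 0 to 18 and 1 to 4 counts of it and overlapped. In untreated Hs746T libraries MUC2, TFF1 and TFF2 held at most 2, 1 and 1 counts. Against Hs746T cells, the regulated members were all higher in the other line, except MUC13, which was lower in MKN7 and MKN1 cells. With only the compared groups in the fit, 5 members differed between NCI-N87 and Hs746T cells, and 4 with the replicate number as a block. With this block MUC2 in NCI-N87 against MKN1 cells had a log2FC of -0.23 (adjusted p = 0.7), and MUC13 in NCI-N87 (0.96) and MUC1 in MKN1 against Hs746T cells (0.96) came under the limit.

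Between 4 h and 24 h without treatment, members were regulated in MKN1 and MKN7 cells. In MKN1 cells MUC16 was at 26.9, 20.3 and 30.02 CPM after 4 h and 69.6, 51.9 and 77.6 CPM after 24 h (log2FC 1.20 ± 0.25, adjusted p = 0.00027), and the libraries did not overlap. MUC5AC was at 7.04, 4.47 and 7.31 CPM and then 2.65, 1.74 and 4.93 CPM (log2FC -1.18 ± 0.34, adjusted p = 0.007), with overlap. These were the 2 regulated members in MKN1 cells, where 8.06% of all genes were called. Without replicate 1 the log2FC of MUC5AC was -0.97 (adjusted p = 0.24). TFF1 held 11, 7 and 27 counts after 4 h and 1, 1 and 14 after 24 h, a fall that passed with the replicate block (log2FC -1.83 (adjusted p = 0.008)) and not without it (log2FC -1.73 ± 1.02, adjusted p = 0.2). It also passed without replicate 3 (log2FC -3.20 (adjusted p = 0.021)). In MKN7 cells MUC5AC held 28, 20 and 19 counts after 4 h and 7, 10 and 8 after 24 h (log2FC -1.69 ± 0.41, adjusted p = 0.0079), the 1 regulated member there (1.76% of genes called). Without replicate 1 it was -1.25 (adjusted p = 0.15). In NCI-N87 cells 0 of 8 members tested were regulated (0.0472% of genes called) and in Hs746T cells 0 of 6 (0.129%), with 0 and 1 at an unadjusted p below 0.05 in edgeR's test and 0 regulated in both by DESeq2.

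After 24 h of afatinib, MUC1, MUC4 and MUC16 rose in MKN1, MKN7 and NCI-N87 cells, MUC5AC and MUC13 fell in NCI-N87 cells, and TFF1 and TFF2 fell in MKN7 cells. Regulated were 3 of 8 members tested in MKN1 cells (4.19% of all genes tested were called), 4 of 7 in MKN7 cells (13.5%), 6 of 8 in NCI-N87 cells (29.6%) and 0 of 6 in Hs746T cells (0%). MUC13 and TFF3 in MKN1, MUC2, MUC13 and TFF3 in MKN7, MUC2 and TFF3 in NCI-N87, and MUC2 and the trefoil factors in Hs746T cells did not pass the filter on low counts. A member could pass it through 1 group of libraries alone.

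**Figure D2:**
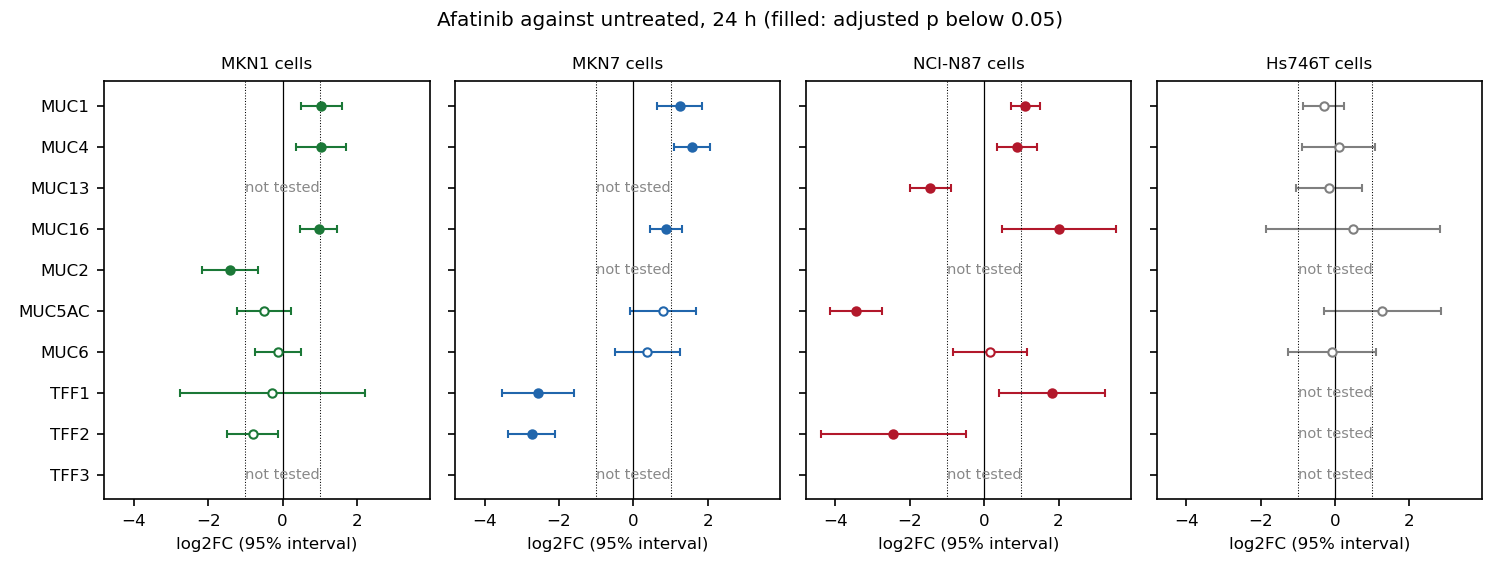
Log2FC of afatinib against untreated cells at 24 h for each gene and cell line, with 95% intervals from edgeR; filled points have an adjusted p below 0.05 and dotted lines mark -1 and 1. MUC1, MUC4 and MUC16 lie to the right of 0 in MKN1, MKN7 and NCI-N87 cells, whereas MUC5AC lies at -3.45 in NCI-N87 cells and the trefoil factors at -2.57 and -2.73 in MKN7 cells.

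MUC1 was at 25.9, 19.0 and 21.3 CPM in untreated and 45.9, 32.7 and 66.9 CPM in afatinib-treated MKN1 cells (log2FC 1.04 ± 0.27, adjusted p = 0.0043). It was at 66.4, 67.5 and 29.1 CPM in untreated and 154, 141 and 121 CPM in afatinib-treated MKN7 cells (log2FC 1.24 ± 0.29, adjusted p = 0.0013). In NCI-N87 cells, 9.82, 11.7 and 11.5 CPM became 22.9, 33.4 and 28.5 CPM (log2FC 1.10 ± 0.19, adjusted p = 2.6e-05). In each of these lines the afatinib-treated libraries lay above all untreated ones. With the replicate block, the rise in MKN1 cells came just under the limit of regulation at a log2FC of 0.99 (adjusted p = 1.7e-07). Without replicate 1 it was 1.19 (adjusted p = 0.051) and without replicate 3 it was 0.77 (adjusted p = 0.0063). In Hs746T cells, MUC1 was at 7.87, 8.28 and 6.20 CPM untreated and 7.49, 5.80 and 4.91 CPM with afatinib (log2FC -0.31, 95% interval -0.85 to 0.23), with overlap.

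MUC4, the membrane mucin that binds HER2, was at 28.6, 36.5 and 26.5 CPM in untreated and 90.0, 90.0 and 117 CPM in afatinib-treated MKN7 cells (log2FC 1.59 ± 0.23, adjusted p = 8.8e-06). Its libraries in NCI-N87 cells had 79.7, 68.0 and 57.2 CPM untreated and 209.5, 147 and 96.3 CPM with afatinib (log2FC 0.87 ± 0.26, adjusted p = 0.006), a rise under the limit of regulation. Scaled by library size alone, which moved the median of all genes in this comparison by 0.26, the log2FC was 1.14 (adjusted p = 0.0017). In MKN1 cells the level was lower, 2.99, 2.38 and 2.88 CPM untreated and 6.43, 3.65 and 8.12 CPM with afatinib (log2FC 1.04 ± 0.33, adjusted p = 0.019). Treated and untreated libraries did not overlap in any of these lines. The MKN1 result rested on all 3 replicates, since the log2FC was 1.04 (adjusted p = 0.099) without replicate 1, 1.19 (adjusted p = 0.058) without replicate 2 and 0.87 (adjusted p = 0.036) without replicate 3.

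MUC16, known in its shed form as the tumour marker CA125, was at 69.6, 51.9 and 77.6 CPM in untreated and 164, 95.1 and 158 CPM in afatinib-treated MKN1 cells (log2FC 0.97 ± 0.24, adjusted p = 0.003). In MKN7 cells, 62.1, 72.2 and 38.2 CPM became 115, 106 and 119 CPM (log2FC 0.87 ± 0.21, adjusted p = 0.0012). Both rises were under the limit of regulation and without overlap. They passed that limit without replicate 2 (log2FC 1.01 in MKN1 and 1.10 in MKN7 cells) and, in MKN1 cells, without replicate 3 (1.05). In NCI-N87 cells the level was far lower, 5.47, 2.70 and 1.83 CPM untreated and 28.9, 11.6 and 8.52 CPM with afatinib (log2FC 2.02 ± 0.74, adjusted p = 0.022). Replicate 1 was the highest and replicate 3 the lowest for MUC16 in 8 of 8 conditions of NCI-N87 cells, and without replicate 2 the log2FC was 2.11 (adjusted p = 0.12).

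**Figure D3:**
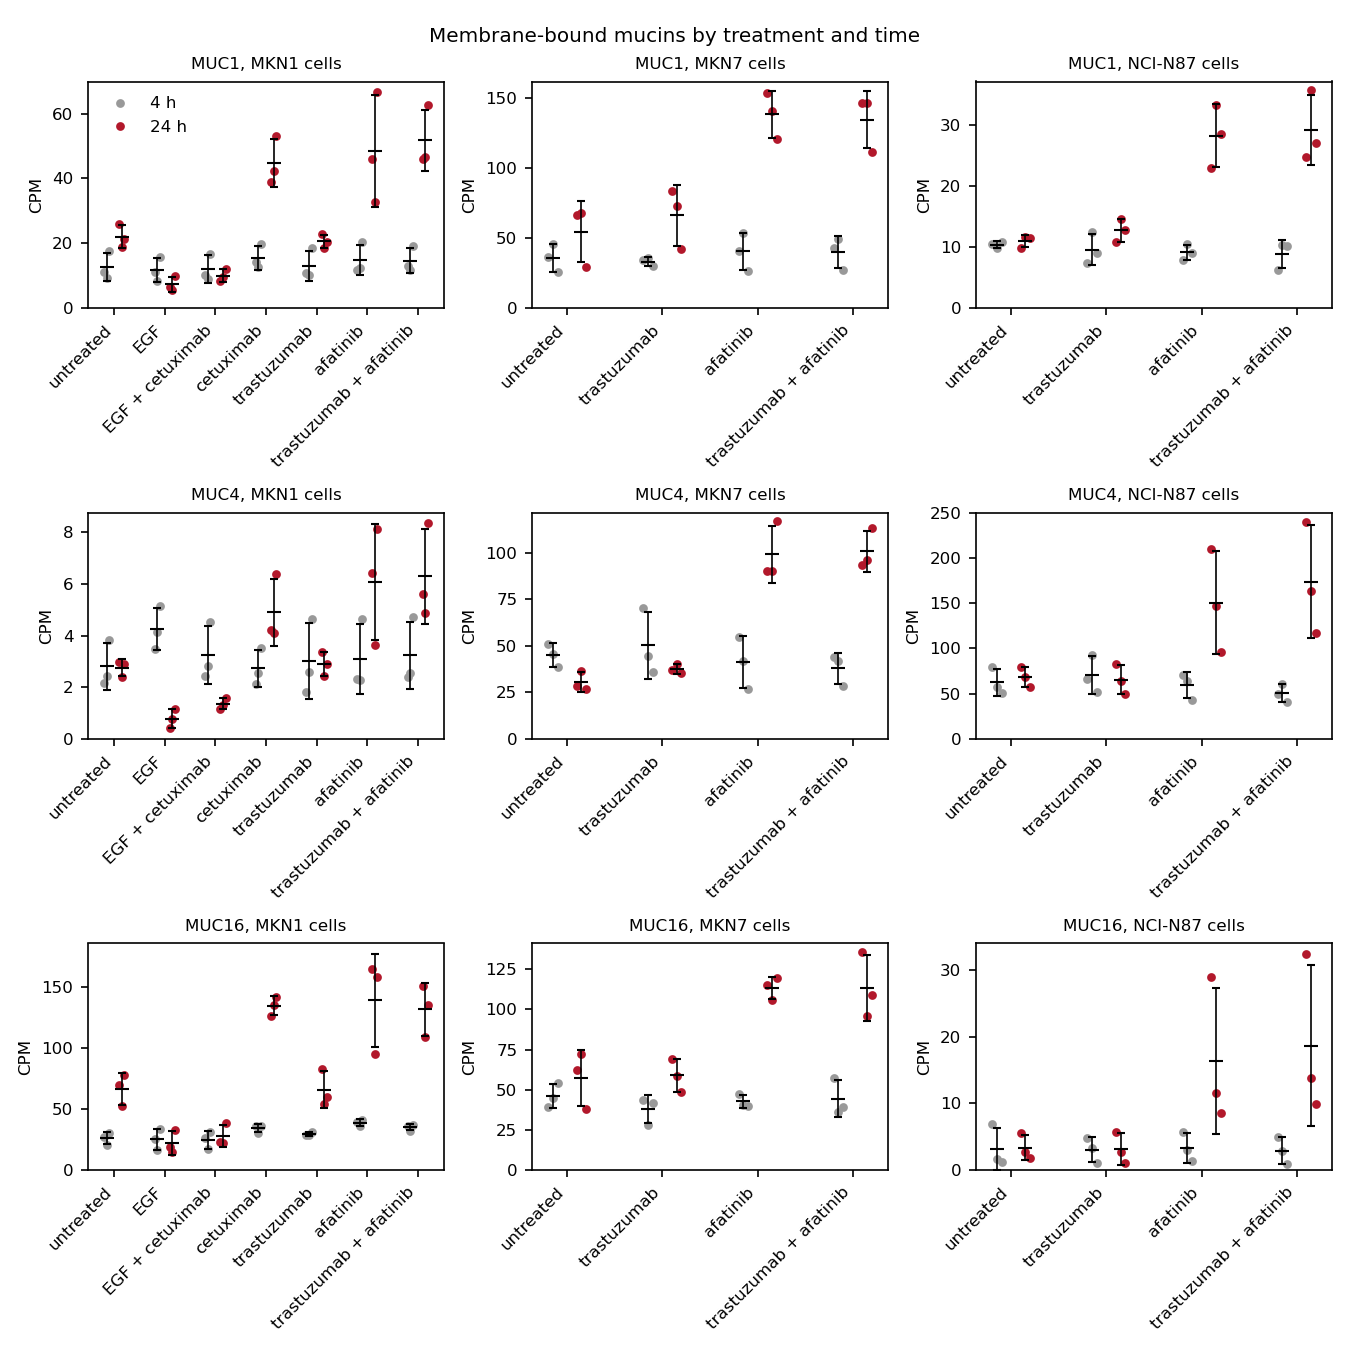
CPM of MUC1, MUC4 and MUC16 in every library of MKN1, MKN7 and NCI-N87 cells by treatment (linear axes from 0), grey for 4 h and red for 24 h, with mean and SD of 3 libraries in black. At 24 h the libraries with afatinib lie above the untreated ones in every panel, and in MKN1 cells those with EGF lie below.

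MUC5AC, the pit cell gel mucin, showed the largest change of the members after afatinib. In NCI-N87 cells it was at 137, 175 and 114 CPM untreated and 14.5, 19.5 and 12.6 CPM with afatinib (log2FC -3.45 ± 0.34, adjusted p = 1.1e-08). MUC13 fell in the same cells from 14.4, 8.89 and 12.5 to 6.79, 3.64 and 5.32 CPM (log2FC -1.45 ± 0.26, adjusted p = 6.2e-05). Neither mucin overlapped between the groups. MUC5AC did not change detectably after afatinib in MKN1 (log2FC -0.51, 95% interval -1.23 to 0.22) or MKN7 cells (log2FC 0.79, 95% interval -0.10 to 1.68), where its level was low, and MUC13 in Hs746T cells had a log2FC of -0.16 (95% interval -1.04 to 0.72). MUC6 did not change detectably in any line, its interval being -0.75 to 0.50 in MKN1, -0.49 to 1.25 in MKN7 and -0.84 to 1.14 in NCI-N87 cells. MUC2 held 12, 13 and 16 counts in untreated and 8, 3 and 5 in afatinib-treated MKN1 cells (log2FC -1.42 ± 0.37, adjusted p = 0.0048). Its log2FC was -1.23 (adjusted p = 0.11) without replicate 3 and -1.41 (adjusted p = 0.059) with only the compared groups in the fit.

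The trefoil factors fell in MKN7 cells. TFF2 was at 6.23, 3.56 and 8.18 CPM in untreated and 1.08, 0.757 and 1.11 CPM in afatinib-treated MKN7 cells (log2FC -2.73 ± 0.30, adjusted p = 2.9e-07). TFF1 was at 1.11, 0.843 and 2.49 CPM in untreated and 0.428, 0.138 and 0.254 CPM in afatinib-treated MKN7 cells (log2FC -2.57 ± 0.47, adjusted p = 0.0001). The groups did not overlap for either, and the treated libraries held 8 to 21 counts of TFF1 and 44 to 57 of TFF2. In NCI-N87 cells both were near the floor. TFF1 held 5, 2 and 1 counts untreated and 14, 9 and 11 with afatinib, a rise with adjusted p = 0.026 that did not pass without replicate 2 (adjusted p = 0.1) or replicate 3 (0.1). TFF2 held 5, 13 and 2 counts untreated and 2, 0 and 2 with afatinib, a fall with adjusted p = 0.029 that did not pass without replicate 2 (adjusted p = 0.49). In MKN1 cells TFF2 was at 1.65, 2.55 and 2.70 CPM and then 1.44, 1.56 and 1.13 CPM, which missed the threshold (log2FC -0.81 ± 0.34, adjusted p = 0.079). Without replicate 1 it passed (log2FC -1.04 (adjusted p = 0.021)).

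**Figure D4:**
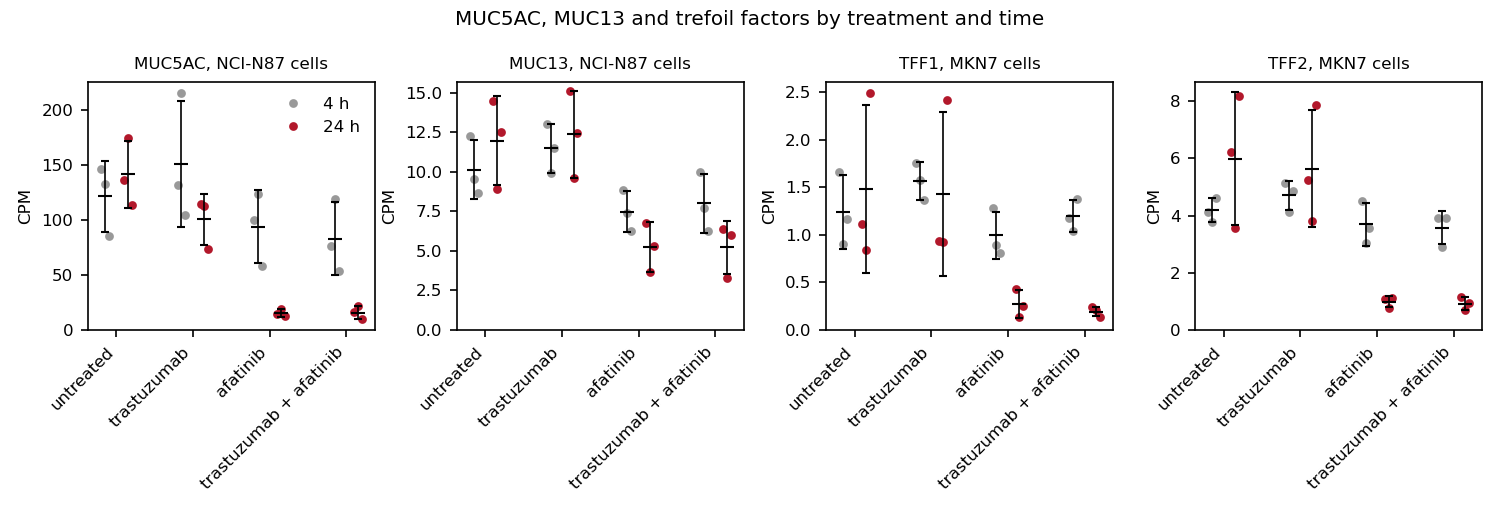
CPM in every library of MUC5AC and MUC13 in NCI-N87 cells and of TFF1 and TFF2 in MKN7 cells by treatment (linear axes from 0), grey for 4 h and red for 24 h, with mean and SD of 3 libraries in black. At 24 h the libraries with afatinib, alone or with trastuzumab, lie below the untreated ones in each panel.

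Adding trastuzumab to afatinib gave like values. After 24 h of trastuzumab + afatinib, 3 of 8 members were regulated in MKN1 (4.24% of genes called), 4 of 7 in MKN7 (13.9%), 7 of 8 in NCI-N87 (31.6%) and 0 of 6 in Hs746T cells (0%). MUC5AC in NCI-N87 cells was at 15.9, 21.4 and 10.1 CPM, and MUC4 at 240.5, 164 and 117 CPM, where it was regulated (log2FC 1.03 ± 0.26, adjusted p = 0.0016). With the replicate block its log2FC was 1.00, and without replicate 1 0.91, both just under the limit. In NCI-N87 cells MUC1 was under it without replicate 2 (0.99). Without replicate 2 the adjusted p of MUC16 was 0.1, of TFF1 0.09 and of TFF2 0.48. TFF2 did not pass without replicate 3 either (0.1). In MKN1 cells MUC1 and MUC4 were regulated as after afatinib, and TFF2 was at 1.05, 1.29 and 0.912 CPM (log2FC -1.21 ± 0.35, adjusted p = 0.0093). Without replicate 3 the log2FC of MUC1 there was 0.93 and of MUC4 0.86. The adjusted p of MUC4 was 0.058 without replicate 1 and 0.07 without replicate 2, and that of TFF2 was 0.096 without replicate 2 and 0.096 without replicate 3. MUC16 in MKN7 cells, under the limit at a log2FC of 0.87, was above it without replicate 2 (1.16). Compared directly with afatinib, 0 members were regulated in 8 comparisons of line and time (58 tests in edgeR, 1 at an unadjusted p below 0.05, 0 regulated by DESeq2), and 0% of all genes were called.

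At 4 h no member had responded to afatinib beyond the spread of the replicates. Of 58 tests of afatinib and trastuzumab + afatinib, 0 were regulated in edgeR and in DESeq2, and 0 had an unadjusted p below 0.05. Of all genes tested, the shares called for the 2 treatments were 3.24% and 3.01% in NCI-N87, 3.4% and 3.71% in MKN7, 0.681% and 0.727% in MKN1 and 0% and 0% in Hs746T cells. MUC5AC in NCI-N87 cells was at 147, 133 and 85.2 CPM untreated and 100.1, 124 and 58.4 CPM after 4 h of afatinib (log2FC -0.44, 95% interval -1.07 to 0.18), and the groups overlapped. TFF2 in MKN7 cells was at 4.14, 3.79 and 4.62 CPM and then 4.52, 3.03 and 3.56 CPM (log2FC -0.25, 95% interval -0.82 to 0.31). Trastuzumab alone gave 0 regulated members in 58 tests over 4 lines and both times (2 at an unadjusted p below 0.05 in edgeR, 0 regulated by DESeq2), and 0% of all genes were called.

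The difference between the afatinib effects at 24 h and 4 h was tested as an interaction. It was regulated for 0 of 8 members in MKN1 (0.575% of genes called, 3 members at an unadjusted p below 0.05, 0 by DESeq2), 4 of 7 in MKN7 (4.67%), 3 of 8 in NCI-N87 (15%) and 0 of 6 in Hs746T cells (0%, 0 at an unadjusted p below 0.05, 0 by DESeq2). In NCI-N87 cells the effect on MUC5AC was lower at 24 h by a log2 difference of -3.01 ± 0.44, and that on MUC1 higher by 1.36 ± 0.26. The effect on MUC4 was higher by 1.01 ± 0.37, or 0.98 with the replicate block, and did not pass without replicate 1 (adjusted p = 0.11) or replicate 2 (0.14). With the replicate block MUC16 also passed in NCI-N87 cells (1.90 (adjusted p = 1.2e-05)). In MKN7 cells the difference was 1.79 ± 0.32 for MUC4, 1.06 ± 0.29 for MUC16, -2.18 ± 0.62 for TFF1 and -2.48 ± 0.41 for TFF2. MUC16 did not pass without replicate 3 (adjusted p = 0.29), and TFF1 did not pass when any 1 of the replicates was left out (adjusted p = 0.056, 0.091 and 0.087). MUC1 in MKN7 cells passed with the block (1.24 (adjusted p = 5.5e-05)).

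Between lines, the 24 h afatinib effect differed for MUC5AC, the trefoil factors, MUC1 and MUC13, again as an interaction, over 9 members. The count was 2 for NCI-N87 minus MKN7 (9.64% of genes called), 1 for NCI-N87 minus MKN1 (13.4%), 3 for NCI-N87 minus Hs746T (19.4%), 1 for MKN7 minus MKN1 (3.6%), 1 for MKN7 minus Hs746T (7.02%) and 1 for MKN1 minus Hs746T (1.34%). The effect on MUC5AC in NCI-N87 cells was lower than in MKN7 cells by a log2 difference of -4.23 ± 0.65, than in MKN1 cells by -2.93 ± 0.41 and than in Hs746T cells by -4.69 ± 1.23. MUC5AC held 7 to 42 counts in MKN7 and 0 to 13 in Hs746T libraries, so the differences from those lines rest on few counts. The TFF1 effect was higher in NCI-N87 than in MKN7 cells by 4.40 ± 1.13, a difference resting on the few counts of NCI-N87 cells given above. The TFF1 rise within NCI-N87 cells did not pass without replicate 2 or replicate 3. The TFF2 effect was lower in MKN7 than in MKN1 cells by -1.93 ± 0.50, which did not pass without replicate 1 (adjusted p = 0.24) or replicate 3 (0.057).

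The MUC1 effect was higher than in Hs746T cells by 1.43 ± 0.40 in NCI-N87, 1.55 ± 0.40 in MKN7 and 1.35 ± 0.40 in MKN1 cells. The MKN7 difference did not pass without replicate 2 (adjusted p = 0.13), and the MKN1 difference did not pass when any 1 of the replicate numbers was left out, its adjusted p being 0.1, 0.36 and 0.8 in turn. Among the 3 responding lines the MUC1 effects were not told apart, the difference being -0.11 (95% interval -0.88 to 0.66) for NCI-N87 minus MKN7, 0.08 (95% interval -0.69 to 0.85) for NCI-N87 minus MKN1 and 0.19 (95% interval -0.57 to 0.95) for MKN7 minus MKN1. The MUC13 effect was lower in NCI-N87 than in Hs746T cells by -1.25 ± 0.49, with adjusted p = 0.037. It did not pass without replicate 2 (adjusted p = 0.17) or replicate 3 (0.24), nor by DESeq2 (0.1). With the replicate block and only the compared groups, the MUC16 effect in NCI-N87 cells was above that in MKN7 (1.21 (adjusted p = 0.00074)), MKN1 (1.16 (adjusted p = 1e-05)) and Hs746T cells (1.51 (adjusted p = 0.0038)), which the fit without the block did not call. The MUC4 effect in MKN7 minus Hs746T cells passed with the block (1.47 (adjusted p = 0.035)), by DESeq2 (1.52 (adjusted p = 0.023)) and without replicate 1 (2.04 (adjusted p = 0.03)). MUC13 in NCI-N87 minus MKN7 cells passed with the block (-2.29 (adjusted p = 0.0081)) and by DESeq2 (-2.30 (adjusted p = 0.027)), where the untreated and afatinib-treated MKN7 libraries held 0 to 7 counts at 24 h.

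EGF lowered in MKN1 cells the membrane-bound mucins that afatinib raised. After 24 h, MUC1 was at 25.9, 19.0 and 21.3 CPM untreated and 6.47, 5.57 and 9.81 CPM with EGF (log2FC -1.41 ± 0.28, adjusted p = 0.00019). MUC4 was at 2.99, 2.38 and 2.88 CPM and then 0.429, 0.785 and 1.14 CPM (log2FC -1.61 ± 0.38, adjusted p = 0.0011). MUC16 was at 69.6, 51.9 and 77.6 CPM and then 18.7, 14.2 and 33.0 CPM (log2FC -1.42 ± 0.25, adjusted p = 3.4e-05). Libraries with EGF lay below all untreated ones for each, and these were the 3 of 8 members regulated (8.36% of genes called). Without replicate 1 the log2FC of MUC1 was -1.19 (adjusted p = 0.055) and that of MUC4 -1.25 (adjusted p = 0.072).

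After 4 h of EGF the regulated member was MUC2, the intestinal gel mucin, which held 22, 15 and 19 counts untreated and 56, 52 and 39 with EGF (log2FC 1.21 ± 0.27, adjusted p = 0.0031), without overlap (1.48% of genes called). Without replicate 1 its log2FC was 1.25 (adjusted p = 0.11). At 24 h the counts of MUC2 were 12, 13 and 16 untreated and 10, 12 and 17 with EGF, and overlapped. The EGF effect at 24 h minus 4 h was -1.38 ± 0.39 for MUC1, -2.32 ± 0.51 for MUC4 and -1.47 ± 0.35 for MUC16, the 3 members regulated in that interaction (2.7% of genes called). Without replicate 1 the adjusted p was 0.45 for MUC1, 0.18 for MUC4 and 0.26 for MUC16, and without replicate 2 it was 0.096 for MUC1 and 0.058 for MUC4. MUC2 passed in it with the replicate block (-1.22 (adjusted p = 0.02)).

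Cetuximab alone raised MUC1 in MKN1 cells after 24 h to 38.9, 42.2 and 53.2 CPM (log2FC 0.94 ± 0.27, adjusted p = 0.022) and MUC16 to 126, 135 and 141 CPM (log2FC 0.93 ± 0.24, adjusted p = 0.011), from the untreated levels above and without overlap. MUC4 was at 4.21, 4.09 and 6.39 CPM (log2FC 0.75 ± 0.33, adjusted p = 0.15). None passed the limit of regulation (1.33% of genes called, 3 of 8 members at an unadjusted p below 0.05, 0 regulated by DESeq2). Scaled by library size alone, MUC1 (1.02) and MUC16 (1.02) passed it. At 4 h 0 of 8 members were regulated (0.333% of genes called, 0 at an unadjusted p below 0.05, 0 by DESeq2). EGF + cetuximab was compared with EGF, and 0 of 8 members were regulated at 4 h (0.126% of genes called) and at 24 h (0.156%), with 1 of the 16 tests at an unadjusted p below 0.05 and 0 regulated by DESeq2. MUC16 with EGF + cetuximab stood at 23.1, 22.0 and 38.1 CPM after 24 h, which overlapped with the EGF libraries but was higher in each of the 3 replicate numbers (log2FC 0.27, 95% interval -0.23 to 0.77). In Hs746T cells EGF, cetuximab and EGF + cetuximab gave 0 regulated members in 36 tests (1 at an unadjusted p below 0.05, 0 by DESeq2; 0% of genes called).

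Other mucin genes and the genes that make, modify or bind mucins were followed by lists. Of the other mucin genes in NCI-N87 cells after 24 h of afatinib, 3 rose and 0 fell past the limit of 9 tested (29.6% of all genes called, median log2FC 0.79 against 0.03 over all genes). MUC5B, the gel mucin that neighbours MUC5AC on chromosome 11, went from 7.19 ± 1.82 to 40.9 ± 7.05 CPM, log2FC 2.24 ± 0.24, against the fall of MUC5AC. MUC20, the neighbour of MUC4, went from 0.350 ± 0.0559 to 4.60 ± 1.77 CPM, log2FC 3.44 ± 0.41, and its exons overlap those of MUC20-OT1, so reads there cannot be given to either. MUC19 was at 0.0140 and then 0.478 CPM (adjusted p = 0.00019). In MKN7 and MKN1 cells 0 of 4 and 0 of 8 other mucin genes were regulated (13.5% and 4.19% of all genes called).

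Of the enzymes of mucin O-glycosylation, 1 rose and 6 fell past the limit of 30 tested in NCI-N87 cells (29.6% of all genes called, median log2FC -0.26 against 0.03 over all genes). GALNT18, of the family that attaches the first sugar, went from 32.4 ± 1.72 to 8.09 ± 0.357 CPM, log2FC -2.26 ± 0.11, ST3GAL1, a sialyltransferase that caps core chains, from 42.4 ± 6.73 to 13.5 ± 5.86 CPM, log2FC -1.92 ± 0.27, and GALNT14, the 1 that rose, from 0.146 ± 0.145 to 1.17 ± 0.842 CPM, log2FC 2.69 ± 0.68. In MKN7 cells 4 rose and 0 fell past the limit of 25 tested (13.5% of all genes called, median log2FC -0.01 against 0.04 over all genes), among them GCNT4 (2.86) and the fucosyltransferases FUT2 (1.15) and FUT1 (1.01), which build the H antigen. In MKN1 cells 1 rose and 0 fell past the limit of 28 tested (4.19% of all genes called), GALNT6 (1.07).

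Of the genes of mucus assembly and secretion, 5 rose and 1 fell past the limit of 22 tested in NCI-N87 cells (29.6% of all genes called), 6 rose and 3 fell past the limit of 21 tested in MKN7 cells (13.5%) and 4 rose and 0 fell past the limit of 20 tested in MKN1 cells (4.19%). BPIFB1, a secreted protein of airway mucus, went from 4.79 ± 0.930 to 50.9 ± 13.3 CPM, log2FC 3.15 ± 0.16 in NCI-N87 and from 2.09 ± 0.442 to 6.996 ± 1.499 CPM, log2FC 1.65 ± 0.21 in MKN1 cells. SLC26A9, a chloride channel of gastric surface cells, went from 23.5 ± 7.41 to 5.16 ± 1.27 CPM, log2FC -2.44 ± 0.23 in NCI-N87 cells. In MKN7 cells ZG16, a lectin of goblet cell granules, went from 2.33 ± 1.60 to 22.2 ± 5.43 CPM, log2FC 3.13 ± 0.48, and DMBT1, which binds trefoil factors, from 7.77 ± 2.69 to 1.65 ± 0.0967 CPM, log2FC -2.36 ± 0.29. AGR3, of the disulfide isomerase family, went from 0.435 ± 0.218 to 3.63 ± 1.61 CPM, log2FC 2.95 ± 0.44 after afatinib in MKN1 cells and was at 0.0268 CPM after EGF (adjusted p = 0.00066). After 24 h of EGF 1 rose and 4 fell past the limit of 20 tested (8.36% of all genes called), with FCGBP (-2.38) and BPIFB1 (-1.87) down and the chloride channel ANO1 (1.90) up.

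Of the known regulators of mucin and trefoil genes, 3 rose and 2 fell past the limit of 18 tested in NCI-N87 (29.6% of all genes called), 4 rose and 2 fell past the limit of 15 tested in MKN7 (13.5%) and 0 rose and 0 fell past the limit of 16 tested in MKN1 cells (4.19%). ELF3, an epithelial ETS factor, went from 95.4 ± 25.2 to 347 ± 80.7 CPM, log2FC 1.60 ± 0.29 in NCI-N87 and from 27.7 ± 9.56 to 81.6 ± 7.38 CPM, log2FC 1.45 ± 0.23 in MKN7 cells. CDX2, the intestinal factor that drives MUC2, went from 61.3 ± 10.5 to 204 ± 30.9 CPM, log2FC 1.48 ± 0.22 in NCI-N87 cells, where MUC2 did not pass the filter on low counts. In these cells 10 intestinal epithelial markers summed to 173 to 238 CPM untreated and 103 to 135 CPM with afatinib at 24 h. KRT20 made up most of the untreated sum. KLF4 rose in NCI-N87 (1.19) and fell in MKN7 cells (-1.31). FOXA2, which acts on the trefoil genes, was at 0.447 and then 0.146 CPM in MKN7 cells (-1.68). Of the binding partners, ACKR3, a chemokine receptor proposed to bind trefoil factors, went from 11.0 ± 5.18 to 76.8 ± 8.99 CPM, log2FC 2.70 ± 0.31 in MKN7 cells after afatinib and from 107 ± 3.38 to 26.2 ± 7.43 CPM, log2FC -1.84 ± 0.20 in MKN1 cells after EGF. MSLN, which binds MUC16, went from 11.4 ± 1.53 to 25.5 ± 2.65 CPM, log2FC 1.05 ± 0.12 in MKN7 cells.

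Of the genes beside the mucin and trefoil loci, 7 rose and 1 fell past the limit of 14 tested in NCI-N87 (29.6% of all genes called), 3 rose and 0 fell past the limit of 13 tested in MKN7 (13.5%) and 1 rose and 0 fell past the limit of 13 tested in MKN1 cells (4.19%). TMPRSS3, beside the trefoil genes, went from 2.16 ± 0.995 to 7.01 ± 1.08 CPM, log2FC 1.59 ± 0.34 in MKN7 cells, where TFF1 and TFF2 fell, and from 6.24 ± 2.20 to 18.9 ± 2.53 CPM, log2FC 1.51 ± 0.23 in MKN1 cells. THBS3, beside MUC1, went from 9.44 ± 1.63 to 32.1 ± 1.89 CPM, log2FC 1.65 ± 0.14 in MKN7 cells.

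Some markers of cell identity also changed after 24 h of afatinib or EGF, not always in the direction of the members. In NCI-N87 cells the 8 epithelial markers summed to 18865 to 21823 CPM untreated and 12800.1 to 14573 CPM with afatinib, with KRT8 (-1.37) and KRT18 (-1.87) down. Of 6 pit cell markers tested there, 2 rose past the limit and 1 fell (29.6% of all genes called), PSCA from 15.7 ± 13.1 to 149 ± 71.0 CPM, log2FC 2.98 ± 0.69 and CTSE from 1.83 ± 0.335 to 0.167 ± 0.0431 CPM, log2FC -3.70 ± 0.24, and the list summed to 176 to 351 CPM untreated and 216 to 493 CPM with afatinib. In MKN7 cells the pit cell list summed to 54.9 to 71.1 CPM and then 27.7 to 36.3 CPM, with CTSE (-2.02) and CAPN8 (-1.13) down and PSCA (1.38) up. In MKN1 cells the fibroblast list summed to 92.5 to 187 CPM untreated, 352 to 395 CPM with afatinib and 35.5 to 39.8 CPM with EGF, in the direction of MUC1, MUC4 and MUC16. LUM alone made up most of the untreated sum (75.5 to 165 CPM) and of the sum with afatinib (322 to 354 CPM). After EGF, CDH1 (-1.35) and ESRP1 (-1.36) were lower and VIM (1.73) higher in MKN1 cells. The part of these shifts in the results on mucins and trefoil factors was not tested.

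The genes whose log2 CPM followed a member most closely over the 44 condition means were sought among 14823 genes, as a description. These points share the 4 lines, and differences between lines set most of each correlation. The closest were AP002992.1 (r = 0.971) for MUC1, PGAP3 (r = 0.992) for MUC4, VSNL1 (r = 0.994) for MUC13, YBX3 (r = 0.983) for MUC5AC, PTGES (r = 0.988) for MUC6, SLC23A2 (r = 0.941) for TFF1 and TMEM147 (r = 0.992) for TFF2. PGAP3 is a neighbour of ERBB2, the HER2 gene.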

How the data were processed

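The counts came from RNA sequencing of 4 lines, with 3 replicates per condition that the series' design text calls biological. The authors purified polyA RNA, made directional libraries and deposited raw counts per Ensembl identifier and library. The labels name Trim Galore, STAR and hg38 without versions, and the counting tool and its treatment of reads in repeats are not given in the sources used here. Identifiers were matched to GENCODE 29, which lacks 8404 of them (0.0422% of counts), and 0 pairs of libraries were identical.

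The tests were run by edgeR 4.0.16 under R 4.3.3 (glmQLFit and glmQLFTest after TMM scaling), on genes passing filterByExpr at a count of 10 and a total of 15. Libraries of one line were fitted together with 1 mean per condition, and contrasts across lines were fitted on all libraries together. CPM used library totals, and log2 CPM for correlations a prior count of 2. DESeq2 1.42.0 was an alternative. The fit and test were tried on simulated MKN7 counts of a fixed spread, with changes placed only in better-counted genes. That simulation did not cover members at low counts, the pairing of replicates or contrasts across lines. Replicate numbers in the labels paired the samples in 47 of 48 comparisons of 2 groups (correlation of deviations from group means 0.088 to 0.707, median 0.348). The exception was trastuzumab + afatinib against afatinib in MKN1 cells at 24 h. A correlation as low as 0.104 was still taken as paired, for trastuzumab + afatinib against untreated MKN1 cells at 24 h. The reported tests left this pairing out, and the replicate block was among the alternatives. Named genes are all members, at most 4 regulated genes per list and comparison with the largest absolute log2FC, and the 3 closest genes per member (for MUC16 not reported here); genes fixed as markers are also named for the check of cell type. Members and 17 lists were chosen with earlier results of these data known. Promoters (RefSeq, GRCh38.p14) were given for 5 members; MUC5AC, MUC6, TFF1, TFF2 and TFF3 have no entry. Plots used matplotlib 3.10.9 in Python 3.11.15.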

Additional observations from a re-analysis of the deposited data

Results flagged for a closer look

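Some effects differed between cell lines by a test of the difference itself. For afatinib at 24 h, the log2 difference of MUC5AC was -4.23 ± 0.65 for NCI-N87 minus MKN7, -2.93 ± 0.41 for NCI-N87 minus MKN1 and -4.69 ± 1.23 for NCI-N87 minus Hs746T cells. That of TFF1 was 4.40 ± 1.13 for NCI-N87 minus MKN7, and that of TFF2 -1.93 ± 0.50 for MKN7 minus MKN1 cells. Against Hs746T cells the difference of MUC1 was 1.43 ± 0.40 in NCI-N87, 1.55 ± 0.40 in MKN7 and 1.35 ± 0.40 in MKN1 cells, and that of MUC13 -1.25 ± 0.49 in NCI-N87 cells. MUC5AC in MKN7 and Hs746T and TFF1 in NCI-N87 cells had few counts. The differences of TFF2, of MUC13 and of MUC1 in MKN7 and MKN1 cells did not pass in some alternative fits, as given above.

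Others differed between time points. For afatinib at 24 h minus 4 h in MKN7 cells, the difference was 1.79 ± 0.32 for MUC4, 1.06 ± 0.29 for MUC16, -2.18 ± 0.62 for TFF1 and -2.48 ± 0.41 for TFF2. In NCI-N87 cells it was 1.36 ± 0.26 for MUC1, 1.01 ± 0.37 for MUC4, -3.01 ± 0.44 for MUC5AC and -0.94 ± 0.37 for MUC13, the last with an adjusted p of 0.049 and under the limit of regulation. For EGF in MKN1 cells it was -1.38 ± 0.39 for MUC1, -2.32 ± 0.51 for MUC4 and -1.47 ± 0.35 for MUC16. The EGF differences, MUC16 and TFF1 in MKN7 and MUC4 in NCI-N87 cells did not pass in some fits with a replicate left out, as given above.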

How the results depend on the processing

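The alternatives gave 889 values for 116 results on single members, of which 799 kept their direction and side of the limits and 0 reversed, and 575 counts of members for 67 comparisons, of which 534 stayed within 1.5 times. The cause of the moves below was not tested, except that requiring 10 counts in every library removes members that fall below it in any library fitted. Under that filter the count was 0 (1 in the reported fit) for EGF at 4 h in MKN1 and 0 (1) for untreated 24 h against 4 h in MKN7 cells. It was 1 (8) for untreated NCI-N87 against MKN7, 0 (8) against MKN1 and 0 (8) against Hs746T, 1 (6) for MKN7 against MKN1, 1 (8) for MKN7 against Hs746T and 1 (9) for MKN1 against Hs746T cells. For the afatinib effect at 24 h it was 0 (2) for NCI-N87 minus MKN7, 0 (1) for NCI-N87 minus MKN1, 1 (3) for NCI-N87 minus Hs746T and 0 (1) for MKN7 minus MKN1. Scaling by library size alone gave 2 (0) for cetuximab at 24 h in MKN1 cells; it moved the median of all genes by 0.26 for afatinib in NCI-N87 and -0.20 for EGF in MKN1 cells at 24 h. With only the compared groups the count was 5 (8) for NCI-N87 against Hs746T, 2 (1) for the afatinib effect in MKN7 minus Hs746T, 0 (1) in MKN1 minus Hs746T, and 1 (3) for the EGF effect at 24 h minus 4 h. DESeq2 gave 2 (1) for MKN7 minus Hs746T. The replicate block with only the compared groups gave 4 (8) for NCI-N87 against Hs746T, and for the afatinib effect 4 (2) for NCI-N87 minus MKN7, 2 (1) for NCI-N87 minus MKN1 and 2 (1) for MKN7 minus Hs746T. Other changes of a call with the block stand beside their results, and no other treatment comparison within a line changed one.

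Leaving out each replicate in turn gave 0 to 1 (1) for EGF at 4 h, 1 to 3 (3) for afatinib, 0 to 2 (3) for trastuzumab + afatinib and 1 to 3 (3) for EGF at 24 h in MKN1 cells, 3 to 7 (7) for trastuzumab + afatinib at 24 h in NCI-N87 cells, and for untreated 24 h against 4 h 1 to 3 (2) in MKN1 and 0 to 1 (1) in MKN7 cells. It gave 5 to 7 (8) for untreated NCI-N87 against Hs746T cells. For the afatinib effect it gave 0 to 1 (1) for MKN7 minus MKN1, 0 to 2 (1) for MKN7 minus Hs746T, 0 in each case (1) for MKN1 minus Hs746T and 2 to 3 (4) for 24 h minus 4 h in MKN7 cells, and 0 to 3 (3) for the EGF effect at 24 h minus 4 h. For contrasts across lines, the block and the left-out replicates were run with only the compared groups, a choice made after seeing the data, and the planned forms on all libraries, with no filter too, were not run. At most 7 counts in any untreated library limit TFF3 in all lines, MUC13 in MKN1 and MKN7, MUC2 in MKN7 and Hs746T, TFF1 in NCI-N87 and Hs746T, and TFF2 in Hs746T cells.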

Other observations

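Some members kept the same replicate number highest or lowest in every condition of a line, while others, such as MUC5AC in MKN7 and Hs746T and TFF2 in NCI-N87 cells, showed no such order. In NCI-N87 cells MUC13 was highest in replicate 1 in 8 of 8 conditions, and MUC4 and MUC5AC were lowest in replicate 3 in 8 of 8. In MKN1 cells TFF1 was highest in replicate 3 and MUC6 lowest in replicate 1 in 14 of 14 conditions. In Hs746T cells MUC13 was highest in replicate 1 in 14 of 14 conditions, and in MKN7 cells TFF2 was lowest in replicate 2 in 8 of 8.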
